A study of Oryza sativa Japonica Group and Oryza sativa with 4 samples.

Results

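The leaves of infested seedlings of 2 rice lines were compared gene by gene. Ilpum GRH is a library from Ilpum, a japonica cultivar susceptible to the green rice leafhopper (GRH), and NIL GRH is a library from a near-isogenic line that carries the resistance locus Grh1. The line came from crossing the indica donor Shingwang with Ilpum. Both kinds of seedling were 21 days old and had been exposed to second-instar nymphs, 10 insects a tube, for 48 h. Ilpum control and NIL control are the libraries of uninfested seedlings of the same age, 1 per line, and they share no library with the infested pair. Of the 37849 genes in the table, 8125 had at least 30 reads in one or both infested libraries and were ranked by log2 of (FPKM + 1) in NIL GRH over (FPKM + 1) in Ilpum GRH. FPKM is a fragment count divided by transcript length and by the total of mapped fragments, so it corrects for gene length and library size. A positive difference means a higher level in NIL GRH.

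Leafhoppers feed by pushing a stylet into the vascular tissue and drawing sap. Rice answers piercing insects and wounding through jasmonate, a hormone made from membrane lipids by lipoxygenase, allene oxide synthase, allene oxide cyclase and oxophytodienoate reductase in turn, and held in check by the TIFY (JAZ) repressors. Abscisic acid is the hormone of water shortage, and its targets include the dehydrins and late embryogenesis abundant (LEA) proteins, which protect cells that lose water. NB-ARC proteins are intracellular immune receptors, the class to which many plant resistance genes belong.

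The deposited reads summed to 894661 in Ilpum GRH and 1170099 in NIL GRH, against 2119765 in Ilpum control and 5037081 in NIL control. Since each condition has 1 library, no difference has a replicate check, and no p-value or SD is given. A gene was called when it was at least 4-fold apart on the FPKM + 1 scale. Counting intervals are exact 95% binomial (Clopper-Pearson) intervals of the log2 ratio of reads per library read, and where a library listed 0 reads the fold was computed against 3 reads, as a lower bound that holds only where the 0 is not a failed estimate. Both cover counting error only. Read counts from 10 to 99 of genes with a single transcript were even in 58.6% to 66.7% of cases, depending on the library, more often than an equal split, as when both reads of a pair are counted, and intervals based on single reads are too narrow. In bulk leaf, fewer cells of a type and less RNA per cell cannot be told apart. The leaf label fitted the data, since the antenna proteins of chlorophyll summed to between 6660 and 29300 FPKM in the 4 libraries.

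The lines differed in both directions by similar numbers of genes. In NIL GRH 537 genes were at least 4-fold higher, which is 6.61% of the genes compared, and in Ilpum GRH 484 were, which is 5.96%. The median difference over all 8125 genes was 0.04 (log2), with an interval over genes of 0.01 to 0.07, and 62.4% of the genes lay within 2-fold. The middle 80% ran from -1.55 to 1.56. Over the same genes the uninfested libraries lay closer together, from -0.93 to 0.92, with 122 genes (1.5%) called higher in NIL control and 92 (1.13%) called higher in Ilpum control. The uninfested libraries were also deeper than the infested library of their line, and the part of depth in this contrast was not tested.

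**Figure D1:**
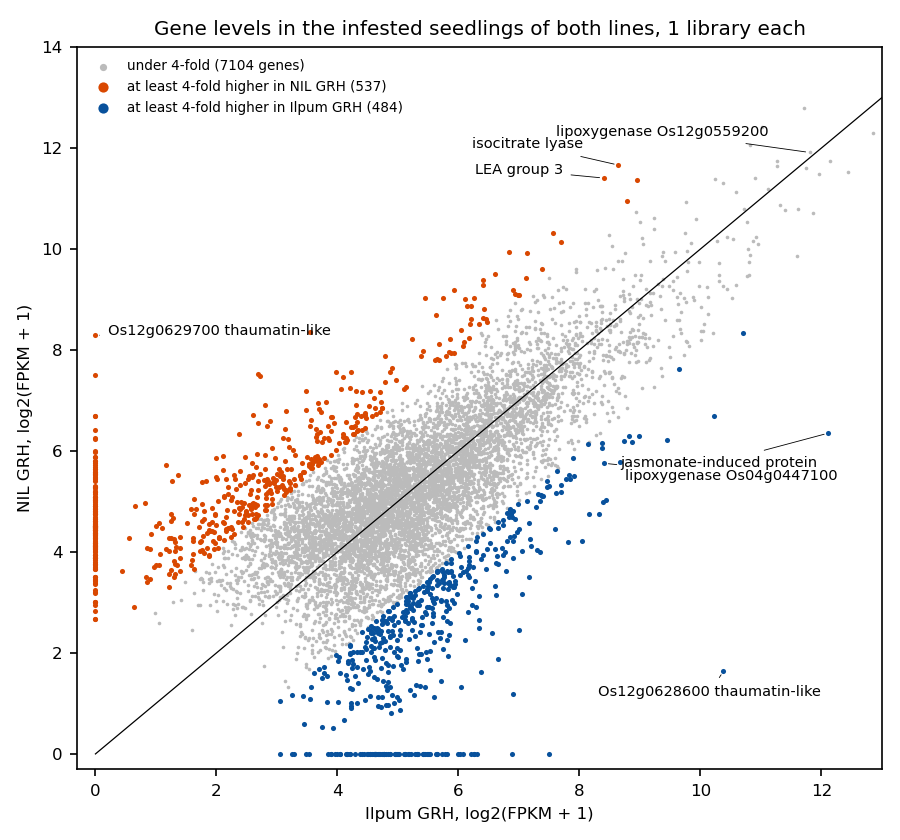
Level of each of the 8125 genes in Ilpum GRH (horizontal axis) and NIL GRH (vertical axis), both as log2(FPKM + 1), with the line of equality. Orange points are the 537 genes at least 4-fold higher in NIL GRH, blue points the 484 at least 4-fold higher in Ilpum GRH, and the points on the axes are genes listed at 0 in one library.

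The share of genes called varied with the reads behind them. It was 14.7% among the 5182 genes whose richer library held 30 to 99 reads, 8.38% among the 2195 with at least 100 but under 300 reads and 9.76% among the 748 with at least 300. In the last class 55 genes were higher in NIL GRH and 18 in Ilpum GRH. At the read minimum itself, 228 genes had exactly 30 reads in the richer library, with a median difference of -0.43 and 24.6% called, while the 117 genes with 29 reads, just left out, had a median of -0.19 and 21.4% called. Among the 5177 genes with at least 30 reads in both infested libraries, 79 were higher in NIL GRH and 56 in Ilpum GRH. No called gene had a counting interval that included equality, but the read minimum and the 4-fold threshold nearly fix this outcome in advance. The interval lay wholly past 4-fold for 261 genes higher in NIL GRH and 227 higher in Ilpum GRH. With a read pair as the unit, these numbers were 121 and 158, and 2 called genes had an interval that included equality.

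Listed zeros made up a part of the calls. Of the genes higher in NIL GRH, 157 were listed at 0 in Ilpum GRH, and 115 of these (73.2%) had at least 30 reads in each of the 2 controls. Of the genes higher in Ilpum GRH, 85 were listed at 0 in NIL GRH, and 29 (34.1%) had at least 30 reads in each control. The 157 genes listed at 0 in Ilpum GRH held genes of general use, so that a listed 0 can be a failed estimate. Such a gene was that for ribosomal protein L44 (Os07g0523150, 29, 137, 0 and 47 reads in Ilpum control, NIL control, Ilpum GRH and NIL GRH). Without the genes listed at 0 in either infested library, 380 and 399 genes were called.

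The levels of the called genes in all 4 libraries are given as a description, since the genes were chosen on the infested values, which places the infested libraries toward the extremes whatever the controls do. The median FPKM of the 537 genes higher in NIL GRH was 20.2 in Ilpum control, 31.1 in NIL control, 3.74 in Ilpum GRH and 34.9 in NIL GRH. Ilpum GRH lay at least 4-fold below both controls for 269 of them (50.1%), and NIL GRH lay at least 4-fold above both for 13 (2.42%). Without the genes listed at 0 in an infested library these numbers were 131 (34.5%) and 10 (2.63%). The 484 genes higher in Ilpum GRH had a median of 12.1 FPKM in Ilpum control, 8.07 in NIL control, 38.8 in Ilpum GRH and 4.49 in NIL GRH. Ilpum GRH lay at least 4-fold above both controls for 163 of these (33.7%) and NIL GRH at least 4-fold below both for 78 (16.1%), and without the listed zeros for 138 (34.6%) and 36 (9.02%). Ilpum GRH was the shallowest of the 4 libraries, and the part of its depth in these values was not tested.

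Most dehydrin and LEA genes were higher in NIL GRH. Of 13 dehydrin and LEA genes with enough reads, 7 were at least 4-fold higher in NIL GRH, none in Ilpum GRH, and the median difference was 2.01, against 6.61% called higher in NIL GRH, 5.96% called higher in Ilpum GRH and a median of 0.04 over all genes. The LEA group 3 gene Os05g0542500 had 1480 FPKM in Ilpum control, 3890 in NIL control, 337 in Ilpum GRH and 2710 in NIL GRH. Ilpum GRH was the lowest library, and the difference of 3.01 had a counting interval of 2.8 to 3.14, or 2.73 to 3.21 by read pairs. The dehydrin Os02g0669100 followed the same order, with 1480, 2200, 438 and 1970 FPKM, and differed by 2.17. WSI76 (Os07g0687900), annotated as induced by water stress, had 218, 243, 41.8 and 252 FPKM in that order of libraries and differed by 2.56. Os03g0322900, another LEA gene, was listed at 0 in Ilpum GRH and had 30 reads in NIL GRH, and since it had 50 and 196 reads in the controls this 0 may be a failed estimate. Os01g0314800 of the LEA 3 family went the other way, at 1480 FPKM in Ilpum GRH and 1180 in NIL GRH. All 13 genes were also higher in NIL control than in Ilpum control and the median of that difference was 1.04.

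A gene for the committed step of abscisic acid synthesis was higher in NIL GRH, although not in NIL control. Os07g0154100, similar to maize Viviparous-14, a 9-cis-epoxycarotenoid dioxygenase, had 267 FPKM in Ilpum control, 173 in NIL control, 52.7 in Ilpum GRH and 521 in NIL GRH. NIL GRH was the highest library and Ilpum GRH the lowest, and the difference of 3.28 had a counting interval of 2.98 to 3.55. Of 40 genes of abscisic acid synthesis and signalling, a list made after values had been seen, 8 (20.0%) were called higher in NIL GRH. None was called higher in Ilpum GRH, and over all genes the shares were 6.61% and 5.96%. Of the 40, 24 were above 0 and 16 below, with a median of 0.4. The list did not hold the abscisic stress ripening gene Os02g0543000, which was called higher in Ilpum GRH. It had 42.9 FPKM in Ilpum control, 9.67 in NIL control, 108 in Ilpum GRH and 14.9 in NIL GRH. Some protein phosphatases 2C switch abscisic acid signalling off. One gene of this family, Os06g0698300, had 147, 271, 14.7 and 189 FPKM in Ilpum control, NIL control, Ilpum GRH and NIL GRH. The ABI1-like phosphatase Os05g0572700 was listed at 0 in Ilpum GRH and had 51 reads in NIL GRH. An abscisic acid-activated protein kinase, Os12g0586100, was likewise at 0 in Ilpum GRH, with 87 reads in NIL GRH. These zeros too may be failed estimates, since both genes were read in the controls, with 74 reads in Ilpum control and 256 in NIL control for the phosphatase and 64 and 250 for the kinase.

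Homeodomain-leucine zipper (HD-ZIP) factors of class I include regulators of stress responses. Os02g0649300 had 632 FPKM in Ilpum control, 356 in NIL control, 113 in Ilpum GRH and 979 in NIL GRH. HOX22 (Os04g0541700) had 245, 243, 68.2 and 516 FPKM in the same order. Both were lowest in Ilpum GRH and highest in NIL GRH, with differences of 3.11 and 2.9. Of 11 genes of this family, a list made after values had been seen, 2 (18.2%) were called higher in NIL GRH and 1 (9.09%) in Ilpum GRH. Over all genes these shares were 6.61% and 5.96%. The list had a median of 0.44, which became -0.98 over the 4 members with a single transcript. The ERF factor Os05g0572000 was 10.1-fold higher in NIL GRH, at 111 FPKM against 10.1.

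Genes that release stored carbon were higher in NIL GRH as well. Isocitrate lyase (Os07g0529000), the entry enzyme of the glyoxylate cycle that turns lipid-derived acetate into sugar precursors, had 346 FPKM in Ilpum control, 848 in NIL control, 398 in Ilpum GRH and 3240 in NIL GRH. Here NIL GRH was the highest library, with 8273 reads and a counting interval of 2.89 to 3.1 around the difference of 3.02. Malate synthase (Os04g0486950), its partner in the cycle, had 434, 383, 219 and 593 FPKM and differed by 1.43. The beta-amylase gene Os03g0141200, whose product cuts maltose from starch, had 574, 928, 139 and 963 FPKM and differed by 2.79. All 6 members of the list of amylases and the glyoxylate cycle, made after values had been seen, had positive differences, with a median of 1.41. Of the 6, 2 (33.3%) were called, against 6.61% of all genes called higher in NIL GRH.

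**Figure D2:**
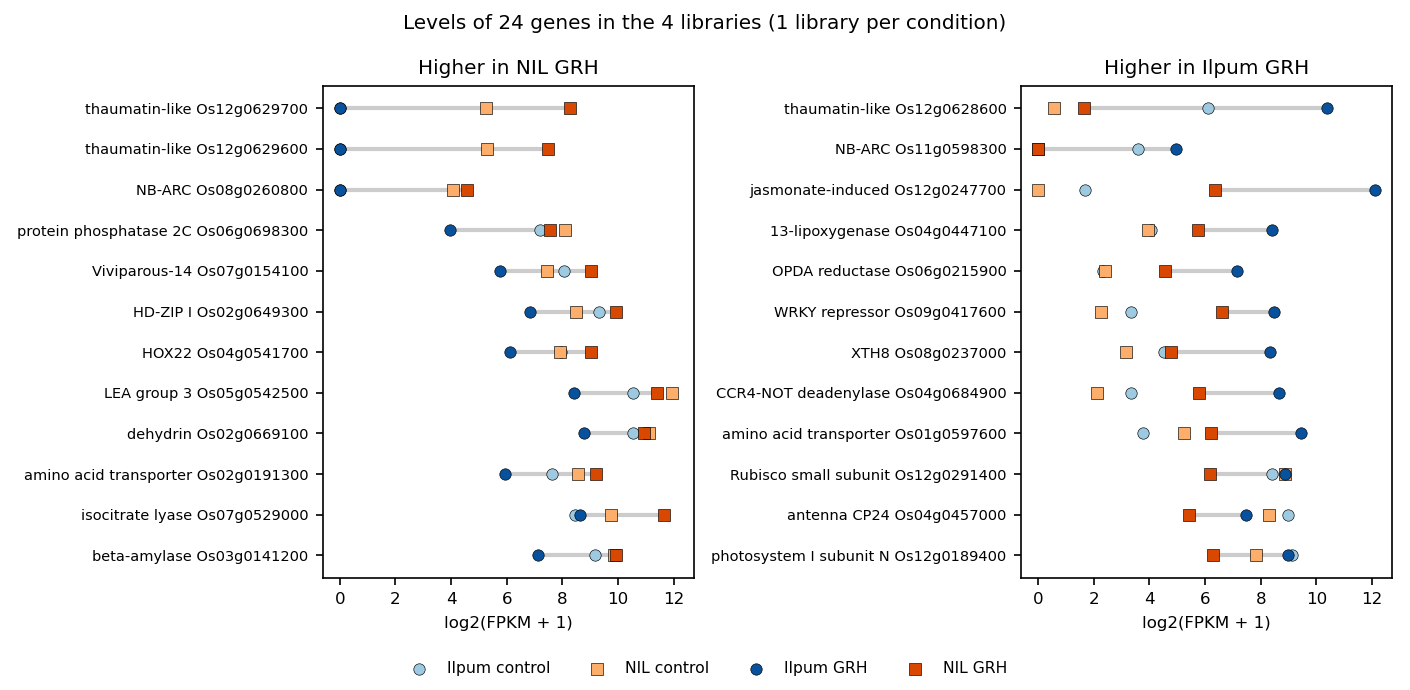
Levels of 24 genes in the 4 libraries on the log2(FPKM + 1) scale, with circles for Ilpum, squares for NIL, pale symbols for uninfested and dark symbols for infested seedlings, and a grey bar that joins the infested pair. In the left panel most dark blue circles (Ilpum GRH) lie left of all other symbols, as for LEA group 3 at 337 FPKM; in the right panel they lie furthest right for the defence and cell wall genes, as for XTH8 at 320 FPKM.

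Amino acid transporters went both ways. Of 24 such genes, a list made after values had been seen, 6 were called higher in NIL GRH and 2 in Ilpum GRH, against 6.61% and 5.96% of all genes. Their median was 0.13, and -0.69 over the members with a single transcript. Os02g0191300 had 196 FPKM in Ilpum control, 381 in NIL control, 60.1 in Ilpum GRH and 583 in NIL GRH, and Os04g0460300 had 131, 217, 36.7 and 298 FPKM. The opposite was seen for Os01g0597600, with 12.8, 37.1, 696 and 73.5 FPKM, and for Os12g0181600, with 114, 30.3, 452 and 78.1. Sap of the phloem is rich in amino acids.

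Jasmonate genes did not form a single pattern. The most abundant lipoxygenase gene of infested leaves, Os12g0559200, was close in both infested libraries, at 3580 FPKM in Ilpum GRH and 3850 in NIL GRH, against 44.1 and 16.4 in the controls. Its difference of 0.11 had a counting interval of 0.03 to 0.11. The 13-lipoxygenase gene Os04g0447100, of the class that makes the precursor of jasmonate, had 15.6 FPKM in Ilpum control, 14.4 in NIL control, 339 in Ilpum GRH and 53 in NIL GRH. It was the only one of 11 lipoxygenase genes called (9.09%), at -2.66 with an interval of -2.95 to -2.49. The others lay between -0.89 and 0.11. Of all genes, 5.96% were called higher in Ilpum GRH and 6.61% in NIL GRH.

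Further down the pathway genes also went both ways. Of 7 genes after lipoxygenase, 3 were above 0 and 4 below. In each direction 1 (14.3%) was called, against 6.61% of all genes called higher in NIL GRH and 5.96% in Ilpum GRH. The median of -0.93 became -0.13 with a minimum of 10 reads. Allene oxide synthase Os03g0767000 had 202 FPKM in Ilpum GRH and 64.9 in NIL GRH, and allene oxide cyclase Os03g0438100 had 486 and 254. The oxophytodienoate reductase gene Os06g0215900 had 4.07 FPKM in Ilpum control, 4.33 in NIL control, 142 in Ilpum GRH and 22.9 in NIL GRH, a difference of -2.58. Against these, the allene oxide synthase Os02g0218700, which also acts as a hydroperoxide lyase, was higher in NIL with and without insects, with 0, 148, 20 and 259 reads in Ilpum control, NIL control, Ilpum GRH and NIL GRH. Of the 11 TIFY repressor genes, whose transcripts jasmonate induces, 9 were lower in NIL GRH, none past 4-fold, with a median of -0.63 and a range from -1.97 to 0.56. Os03g0180800 was the lowest, at 127 FPKM in Ilpum GRH and 31.6 in NIL GRH.

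The jasmonate-induced protein Os12g0247700 was the largest difference among the genes with at least 30 reads in both libraries. It had 7 reads in Ilpum control, 0 in NIL control, 5088 in Ilpum GRH and 119 in NIL GRH, and 4420 against 80.7 FPKM with insects, which is a difference of -5.76 with an interval of -6.08 to -5.54. Os12g0199000, annotated alike and on the same chromosome, was opposite, with 2, 53, 0 and 47 reads.

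The elicitor-responsive protein gene Os01g0841700 had 82 reads in Ilpum GRH and none in the other 3 libraries, at least 35.7-fold above NIL GRH. A WRKY repressor with a pathogen response in its annotation, Os09g0417600, had 9.06 FPKM in Ilpum control, 3.77 in NIL control, 359 in Ilpum GRH and 96.1 in NIL GRH. WRKY69 (Os08g0386200) had 8.4, 12.3, 175 and 38.1 FPKM. The 30 WRKY genes had a median of -0.69, with 4 (13.3%) called higher in Ilpum GRH and 2 (6.67%) in NIL GRH, against 5.96% and 6.61% of all genes. The NIL-high members were Os07g0596900, listed at 0 against 43 reads, and Os12g0116700, with 5 against 54 reads and no reads in the controls. The 0 of Os07g0596900 may be a failed estimate, since it had 35 reads in Ilpum control and 97 in NIL control.

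Terpene synthases make volatile and defensive terpenoids, and 8 were measured. Os08g0139700 was lower in NIL in both conditions, with 235 reads in Ilpum control, 40 in NIL control, 671 in Ilpum GRH and 171 in NIL GRH. Os08g0168000, a sesquiterpene synthase gene without reads in either control, had 498 FPKM in Ilpum GRH and 219 in NIL GRH, while Os08g0167800, annotated alike, had 68.9 and 137. Os02g0121700, at 0 reads in the controls, had 237 and 260 FPKM with insects. Phenylalanine ammonia-lyase and the other enzymes of the phenylpropanoid entry had a median of -0.48 over 26 genes and none was called. Os04g0518400, a phenylalanine ammonia-lyase gene, had 144 FPKM in Ilpum GRH and 75.8 in NIL GRH. All 5 genes of the respiratory burst oxidases, which make superoxide at the plasma membrane, were lower in NIL GRH, from -1.69 to -0.11, and none was called.

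Thaumatin-like genes of chromosome 12 held both ends of the ranking. Thaumatin-like proteins are antifungal pathogenesis-related proteins. Os12g0628600 (chr12:26913087-26913851 in IRGSP-1.0, as are all positions) had 68.3 FPKM in Ilpum control, 0.5 in NIL control, 1330 in Ilpum GRH and 2.11 in NIL GRH, or 116, 2, 971 and 2 reads. Os12g0629600 (chr12:26932273-26933292) was the mirror image, with 0, 107, 0 and 118 reads, and Os12g0629700 (chr12:26946904-26947698) had 0, 155, 0 and 304 reads. Against 3 reads, the level in NIL GRH was at least 30.1 times that of Ilpum GRH for the former and at least 77.5 times for the latter. Ilpum libraries were thus high for the one gene and NIL libraries for its neighbours, with and without insects. Where copies are nearly identical, reads of one may be assigned to another, and this was not tested. The other thaumatin and PR genes were closer, with Os12g0569300 at 54.6 FPKM in Ilpum GRH and 235 in NIL GRH, the PR1a-like gene Os07g0129300 at 102 and 71, and the PR10 gene Os03g0300400 at 196 and 77.7. Over the 11 genes of this list 3 (27.3%) were called higher in NIL GRH and 1 (9.09%) in Ilpum GRH, against 6.61% and 5.96% of all genes. The median of 1.04 became -0.55 with a minimum of 10 reads.

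Of 45 NB-ARC receptor genes, 5 (11.1%) were called higher in NIL GRH and 6 (13.3%) in Ilpum GRH, against 6.61% and 5.96% of all genes, and the median was -0.28. Os08g0260800 on chromosome 8 had 0 reads in Ilpum control, 230 in NIL control, 0 in Ilpum GRH and 78 in NIL GRH. The opposite held for Os11g0598300, with 112, 0, 133 and 0 reads, and for Os11g0605100, with 269, 0, 83 and 0, both on chromosome 11. These 3 genes were each read in a single line. The receptor gene with the most reads, Os12g0586000, similar to ADR1, differed by -0.1.

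A set of genes differed between the lines the same way with and without GRH. The same direction past 4-fold was found for 40 genes higher in NIL and 43 higher in Ilpum, 83 in all. They were 7.45% and 8.88% of the infested calls, against 1.5% and 1.13% of all genes called in the uninfested pair. Of the uninfested calls in the same genes they were 32.8% and 46.7%, against 6.61% and 5.96% of all genes called with GRH. Of the genes called with GRH, 365 (68.0%) of those higher in NIL GRH and 312 (64.5%) of those higher in Ilpum GRH were within 2-fold without it. Over all 8125 genes, the 10th and 90th percentiles of the difference without GRH were -0.93 and 0.92. The called genes were thus less often within 2-fold without GRH than genes in general. In the opposite direction, 11 genes were higher in NIL control and in Ilpum GRH, and 0 the other way.

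**Figure D3:**
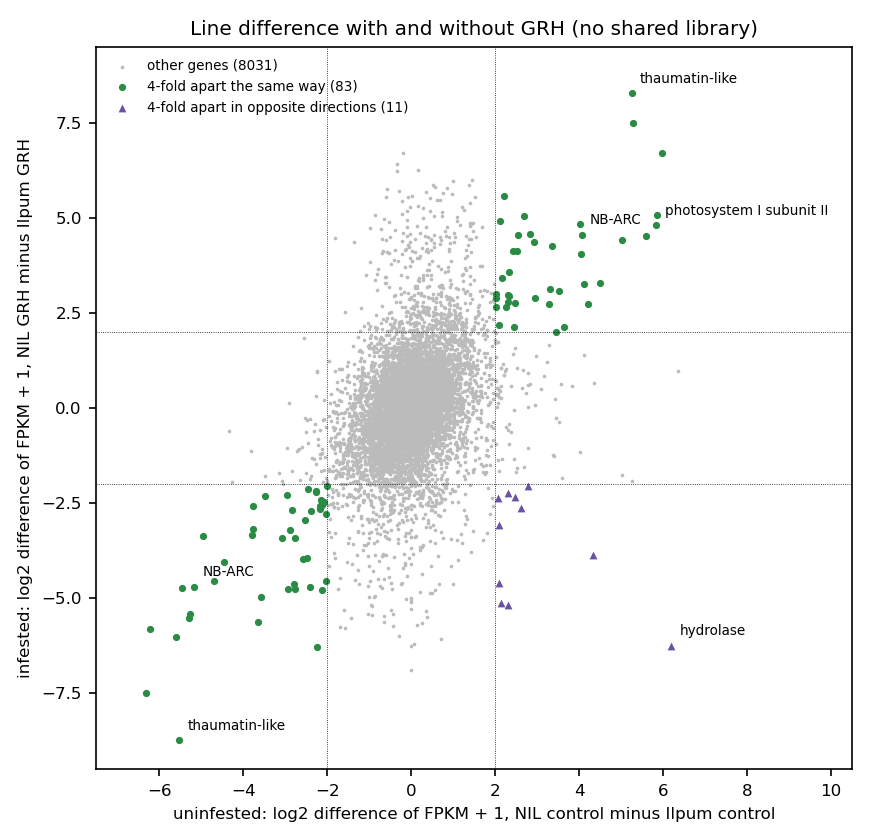
Difference between NIL and Ilpum for each of the 8125 genes without GRH (horizontal axis) and with GRH (vertical axis), as log2 of FPKM + 1, with dotted lines at 4-fold. Green circles are the 83 genes past 4-fold the same way in both pairs, among them the thaumatin-like genes in opposite corners, and purple triangles are the 11 genes past 4-fold in opposite directions.

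Several of these standing differences concern genes of known function. Os08g0560900, a copy of photosystem I subunit II (PsaD), had 9.89 FPKM in Ilpum control, 624 in NIL control, 10.7 in Ilpum GRH and 328 in NIL GRH. The type 1 metallothionein gene Os12g0570700, whose product binds metal ions, had 134, 3132, 41 and 343 reads. Heat shock protein 70 (Os03g0277300) had 40.8, 204, 3.37 and 33.5 FPKM, and the heat shock factor Os02g0232000 had 6.5, 92.7, 25.5 and 114. Oxalate oxidase Os03g0693700, a germin that makes hydrogen peroxide, had 10 reads in Ilpum control, 277 in NIL control, 3 in Ilpum GRH and 32 in NIL GRH. On the Ilpum side Os02g0216300, described only as similar to cDNA clones, had 341 reads in Ilpum control, 277 in Ilpum GRH and none in NIL. The WRKY25-like gene Os08g0235800 had 31, 9, 68 and 2 reads, and the bHLH gene Os05g0439100, similar to MYC7E, had 74, 38, 59 and 2.

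By chromosome, the share of genes called with GRH ran from 10.1% on chromosome 6 to 16.5% on chromosome 11. Chromosome 5, on which the study places Grh1, had 11.3% (exact binomial interval 9.11% to 13.9%), with 47 genes higher in NIL GRH and 34 in Ilpum GRH. The genes past 4-fold the same way with and without GRH were more unevenly placed, with 17 on chromosome 12 (4.29% of its genes), 15 on chromosome 8 (2.81%), 8 on chromosome 11 (2.32%), 4 on chromosome 5 (0.56%) and 1 on chromosome 6. Genes of a chromosome are not independent samples, and these intervals cover counting of genes only.

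**Figure D4:**
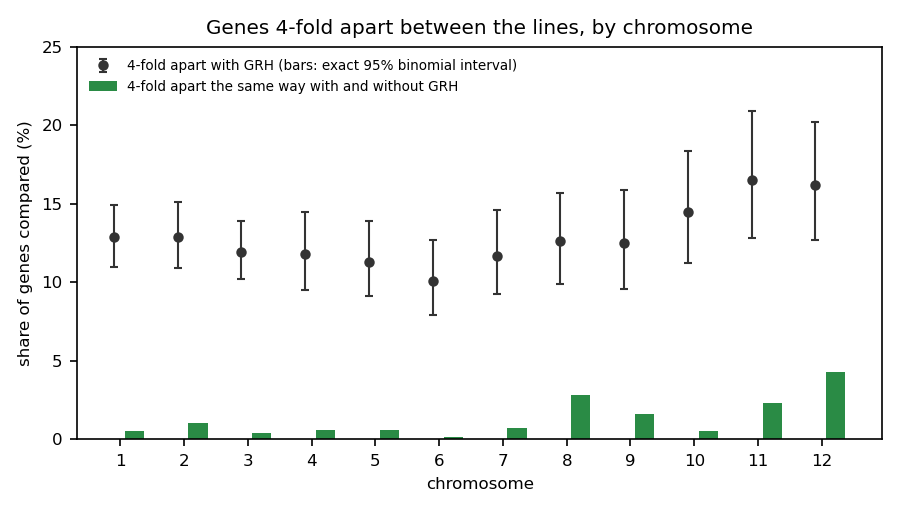
Share of the genes compared on each chromosome that were at least 4-fold apart in the infested pair (points, with exact 95% binomial intervals) and at least 4-fold apart the same way in both pairs (green bars). The points lie between 10.1% and 16.5% with overlapping intervals for most chromosomes, and the tallest bar is chromosome 12 at 4.29%.

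Most photosynthesis genes of the nucleus were lower in NIL GRH. Of 10 antenna genes, which code for the chlorophyll-binding proteins that collect light, 9 were lower there, 2 of them past 4-fold, with a median of -1.46. For comparison, 5.96% of all genes were called lower in NIL GRH and 6.61% higher. In the uninfested pair none of the 10 antenna genes was above 0, and the median was -0.52. Over all 20 antenna genes in the table the summed FPKM was 29300 in Ilpum control, 20400 in NIL control, 15200 in Ilpum GRH and 6660 in NIL GRH. CP24 (Os04g0457000) had 500, 316, 175 and 41.6 FPKM in that order, and CP29 (Os07g0558400) had 662, 574, 238 and 57.2. The gene with the most reads, Os09g0346500 of light-harvesting complex II, had 9320, 5660, 5560 and 2930 FPKM. NIL GRH was the lowest library for each of these. The exception, Os02g0610700, was higher in FPKM (17.9 and 22.4) but had fewer reads in NIL GRH (39 and 28), and its difference changed to -0.79 with read counts scaled by TMM factors.

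The photosystem core genes gave a median of -1.23 over 24 genes, with 20 lower in NIL GRH, 5 called lower and 2 called higher. These calls were 20.8% and 8.33% of the list, against 5.96% and 6.61% of all genes. The highest was the PsaD copy Os08g0560900, at 4.81. In the uninfested pair 8 of the 24 were above 0, with a median of -0.29. The oxygen-evolving PsbQ-family gene Os07g0105600 had 77.4 FPKM in Ilpum control, 47.1 in NIL control, 81.9 in Ilpum GRH and 2.1 in NIL GRH. The 22-kDa photosystem II protein gene Os01g0869800, which protects the photosystem from excess light, had 144, 118, 119 and 13.8 FPKM. Subunit N of photosystem I (Os12g0189400) had 550, 227, 504 and 77.9 FPKM. In these 3 genes Ilpum GRH stayed near the range of the controls and NIL GRH was low. Os07g0147500, a photosystem II 10-kDa gene, was listed at 0 in NIL GRH with 45 reads in Ilpum GRH. It had 184 reads in Ilpum control and 432 in NIL control, so this 0 may be a failed estimate.

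Rubisco followed the same line for the small subunit and not for the large one. The small subunit genes Os12g0274700 and Os12g0291400 had 1030 and 464 FPKM in Ilpum GRH against 333 and 71.1 in NIL GRH. Rubisco activase (Os11g0707000), which keeps the enzyme active, had 4000 and 2870 FPKM. Genes annotated as large subunit on nuclear chromosomes, such as Os10g0356000, were higher in NIL GRH (1800 and 4240 FPKM), and so was the D1-like gene Os04g0473150 (2070 and 5500 FPKM). The large subunit and D1 are encoded in the plastid genome, and where nuclear copies are near-identical to it their reads cannot be told apart, so these values are uncertain. For the Calvin cycle list as a whole the median of -0.82 changed to 1.11 over its 6 genes with a single transcript. Plastid and mitochondrial ribosomal proteins had a median of -1.05 over 21 genes, with 6 (28.6%) called lower and 1 (4.76%) called higher in NIL GRH. Over all genes these shares were 5.96% and 6.61%. By contrast, 176 cytosolic ribosomal proteins had a median of -0.22.

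Genes that build the cell wall were mostly lower in NIL GRH. Of 18 genes for cellulose synthases and xyloglucan endotransglycosylases, a list made after values had been seen, 7 (38.9%) were called higher in Ilpum GRH. None was called higher in NIL GRH, and over all genes the shares were 5.96% and 6.61%. The list median of -1.46 ranged from -2.19 to -0.59 over the settings tried. XTH8 (Os08g0237000), which loosens and rejoins xyloglucan chains, had 22.1 FPKM in Ilpum control, 7.84 in NIL control, 320 in Ilpum GRH and 26.1 in NIL GRH. Cellulose synthase A9 (Os09g0422500), a subunit of the complex of secondary walls, had no reads in the controls, 43 in Ilpum GRH and 2 in NIL GRH. The mixed-linkage glucan synthase gene Os08g0160500 had 2.81, 3.53, 40.8 and 7.31 FPKM. In each of these Ilpum GRH was the only high library.

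The remaining genes with large differences and at least 30 reads on both sides were mixed in function. Higher in Ilpum GRH was the poly(A)-binding protein interactor Os03g0353400 (1200 and 102 FPKM in Ilpum GRH and NIL GRH). It is also annotated as similar to an early response to dehydration 15-like protein, and so went against most dehydrin and LEA genes. Also higher in Ilpum GRH were the cupredoxin gene Os08g0482600 (346 and 31.5), the protein kinase gene Os06g0202900 (156 and 15.4), the formin gene Os02g0739100 (145 and 18) and the CCR4-NOT deadenylase gene Os04g0684900 (407 and 54). Deadenylases shorten the tails of messenger RNA. Higher in NIL GRH were 3 genes without a known product, Os11g0303800 (26.6 and 235 FPKM), Os01g0944100 (48.2 and 414) and Os03g0250000 (15.7 and 149). The last has several transcripts, and its reads (51 and 229) gave a smaller ratio than its FPKM, with an interval of 1.34 to 2.25.

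Most extremes of the ranking were genes listed at 0 on one side. The 12 genes highest in NIL GRH were all listed at 0 in Ilpum GRH. Besides 2 thaumatin-like genes they were the zinc finger gene Os08g0564500, the MtN3 sugar transporter family gene Os01g0606000, the thioredoxin domain gene Os01g0794400, the ribosomal gene Os07g0523150 and 6 genes without a named product, Os01g0559750, Os03g0806600, Os10g0364900, Os11g0177200, Os03g0626200 and Os02g0191250. NIL GRH had between 40 and 123 reads for these 10, and 9 of them were read in all other libraries, the exception being Os01g0559750, which had no reads in Ilpum control. At the other end, besides the genes already given, the 12 lowest held a beta-D-xylosidase (Os11g0291500), a disease resistance response (dirigent-type) gene (Os07g0617100), a ribosomal protein L17-like gene (Os03g0815400), a hydrolase-like gene (Os11g0384789) and Os12g0516000, Os07g0467200, Os11g0549665 and Os08g0301600 without a named product. All 8 had 0 reads in NIL GRH and between 34 and 91 in Ilpum GRH.

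**Figure D5:**
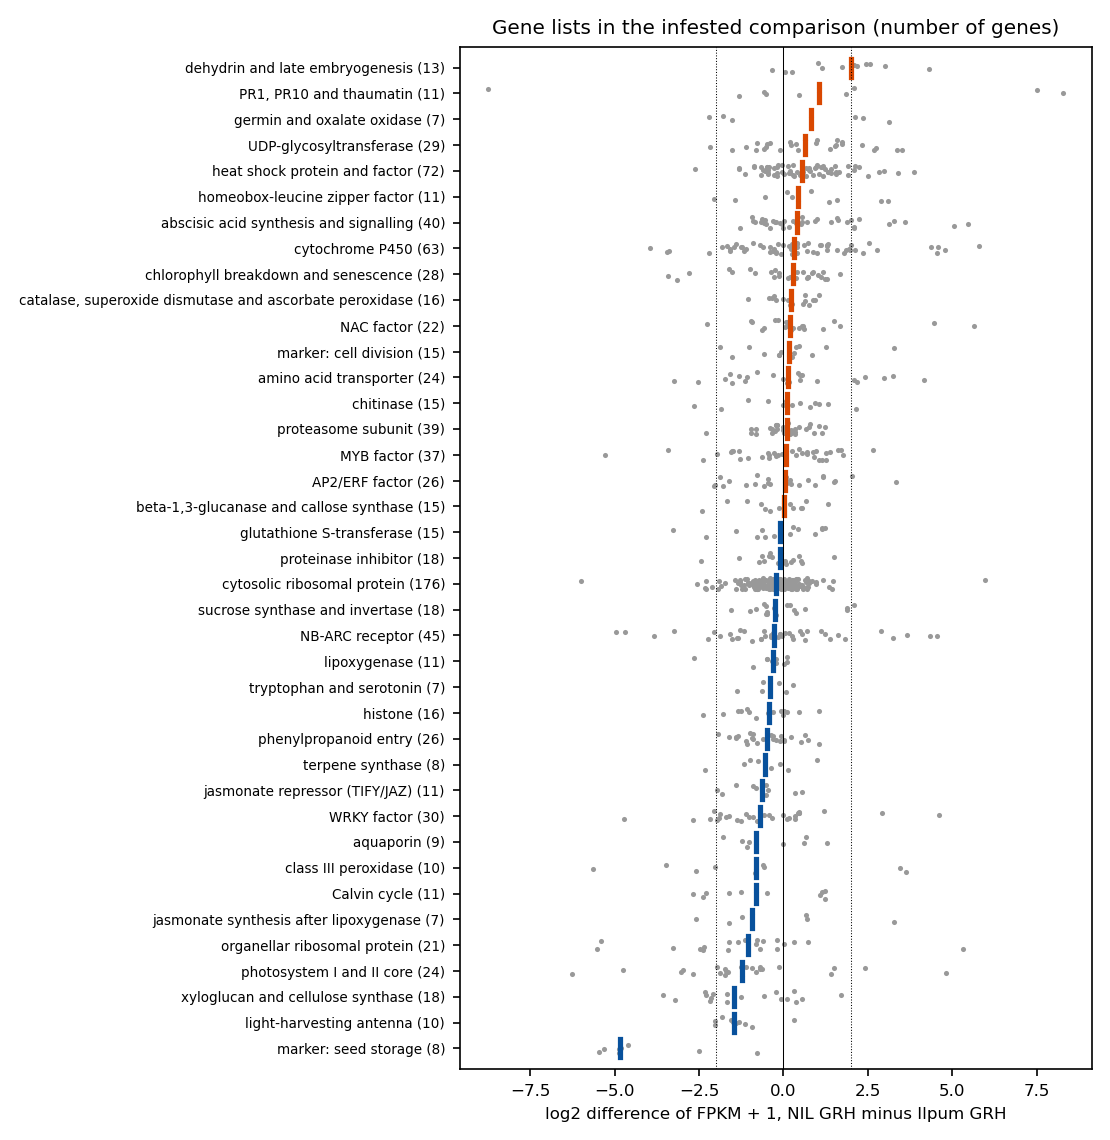
Difference between NIL GRH and Ilpum GRH (log2 of FPKM + 1) for each gene (grey points) of the lists with at least 7 genes, ordered by list median (coloured bars, orange above and blue below 0), with dotted lines at 4-fold and the number of genes in brackets. Dehydrins and LEA genes lie highest with a median of 2.01, and antenna, cell wall, photosystem and seed storage genes lie lowest.

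Other lists of enzymes and stress proteins held calls in both directions. Over all genes 6.61% were called higher in NIL GRH and 5.96% in Ilpum GRH. Cytochrome P450 genes, which oxidise hormones and defence compounds, had a median of 0.31 over 63 genes with 9 called higher in NIL GRH and 4 in Ilpum GRH. Of the 9, 5 were listed at 0 in Ilpum GRH, and such zeros may be failed estimates. UDP-glycosyltransferases, which attach sugars to such compounds, had 0.64 over 29 genes with 5 and 1 called. Heat shock proteins and factors had 0.56 over 72 genes with 8 and 1 called, and were also above 0 in the uninfested pair (median 0.27). Class III peroxidases had a median of -0.82 over 10 genes and ran from -5.65 (Os10g0109300) to 3.64 (Os02g0240100), with 2 called higher in NIL GRH and 4 in Ilpum GRH. Of 7 germins, a list made after values had been seen, 3 were called higher in NIL GRH and 1 in Ilpum GRH, and the median was 0.81. The 3 higher in NIL GRH were oxalate oxidases on chromosome 3, such as Os03g0694000 with 65.2 and 337 FPKM.

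The 15 chitinases had a median of 0.12 and ran from -2.64 to 2.15. In each direction 1 (6.67%) was called, near the shares of all genes (6.61% and 5.96%). The gene with the most reads, Os05g0247100, had 2450 FPKM in Ilpum GRH and 3430 in NIL GRH. The 18 proteinase inhibitors, which block digestive enzymes of insects, had a median of -0.11, with the Bowman-Birk genes Os01g0123900 at 4510 and 3430 FPKM and Os01g0124000 at 2230 and 2320. Glutathione S-transferases had a median of -0.09 over 15 genes. Among the regulators, 22 NAC genes had a median of 0.18, 26 AP2/ERF genes 0.06 and 37 MYB genes 0.09. The NAC gene Os12g0610600, a negative regulator of drought tolerance, was listed at 0 in Ilpum GRH with 89 reads in NIL GRH. This 0 may be a failed estimate, since the gene had 39 reads in Ilpum control and 185 in NIL control. The R2R3 MYB gene Os02g0624300 had 38 reads in Ilpum GRH and none in the other 3 libraries. Proteasome subunits, a set used in every cell, had a median of 0.1 over 39 genes with 1 called.

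The medians of further lists were 0.02 for 15 beta-1,3-glucanases and callose synthases, 0.21 for 16 catalases, superoxide dismutases and ascorbate peroxidases, -0.39 for 7 genes of tryptophan and serotonin synthesis, -0.17 for 4 wall-associated kinases, 0.28 for 28 genes of chlorophyll breakdown and senescence, -0.24 for 18 sucrose synthases and invertases, -0.43 for 16 histones and -0.81 for 9 aquaporins. The medians of the glucanase, sucrose and aquaporin lists, like those of the amino acid transporter, AP2/ERF, MYB and glutathione S-transferase lists, changed sign under another filter on the genes. The words of the aquaporin list also missed the tonoplast aquaporin gene Os01g0975900, which was called higher in NIL GRH, at 2.44. Chlorophyll breakdown held Staygreen (Os04g0692600), which starts the removal of magnesium from chlorophyll and was lower in NIL GRH, at 40.8 and 2.94 FPKM on 44 and 5 reads. Chlorophyll b reductase (Os01g0227100) of the same list was higher there, at 157 and 507 FPKM.

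For 14 genes that were also measured by qPCR, a partial set of those so measured, only sequencing values are given here. The actin depolymerizing factor gene Os03g0820500 had 188 FPKM in Ilpum GRH and 1280 in NIL GRH. The tonoplast aquaporin gene Os01g0975900 had 207 and 1130, the ribosome-inactivating protein gene Os01g0160800 had 119 and 582, and Os10g0517500, a gene of methionine and cysteine metabolism, had 360 and 1240. The UDP-glucuronic acid decarboxylase gene Os01g0837300 had 22.2 and 42.6, pheophorbide a oxygenase (Os03g0146400) had 109 and 183, and the ubiquitin carrier gene Os01g0839700 had 45.1 and 43.8. Lower in NIL GRH were the 23-kDa photosystem II gene Os07g0141400, with 1050 and 329 FPKM, and the aldolase gene Os06g0608700, with 124 and 20.1.

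Some markers of other material also differed in the infested pair. Seed storage genes had 7 of 8 members called higher in Ilpum GRH, against 5.96% of all genes. Of these, 6 glutelin genes were listed at 0 in NIL GRH and read in the other 3 libraries, such as Os02g0249800 with 38, 124, 45 and 0 reads. These zeros too may be failed estimates. The list median of -4.84 ranged from -8.11 to -0.77 over the settings tried. Over the 51 genes of that list the summed FPKM was 211 in Ilpum control, 265 in NIL control, 536 in Ilpum GRH and 86.9 in NIL GRH. In a word list for root silicon and nicotianamine genes, only the silicon influx aquaporin gene Os06g0228200 had enough reads. It had 5.1, 4.5, 283 and 133 FPKM in the same order, but its annotation does not place it in the root. Cell division genes were even, with a median of 0.16 and a summed FPKM between 523 and 578. The part of these markers in the differences above was not tested.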

How the data were processed

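The authors trimmed the reads with Trimmomatic and, per the file headers, aligned with HISAT and assembled with StringTie 1.3.4d against IRGSP-1.0 (RAP-DB transcripts). FPKM, TPM and coverage were deposited by the authors per transcript. The deposited estimated count of a gene with a single transcript could be rebuilt from its coverage, its length and the length of a read, to within 1 read in 100% of cases. The kit marked strand, and StringTie was run with its setting for such libraries (rf). Gene values are sums over transcripts. The study describes duplicates, but 1 set of values per condition was analysed.

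The pseudocount was 1 FPKM. Genes named were the 12 highest and 12 lowest, the 8 highest and 8 lowest with at least 30 reads in both infested libraries, the highest, lowest and 2 richest of each of 38 word lists, and 14 of the genes measured by qPCR, those that could be matched. Others were chosen after their values were seen, as were 6 added lists. Members and lists were chosen with earlier results of these data known, and list words were tightened after the matched descriptions were seen. Python 3.11.15, pandas 2.3.3, scipy 1.17.1 and edgeR 4.0.16 (TMM factors only) were used, and the steps were tested on simulated data. Sequences were not analysed here.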

Additional observations from a re-analysis of the deposited data

Results flagged for a closer look

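In 11 genes the lines were at least 4-fold apart in opposite directions with and without GRH, and in each the level was higher in NIL control than in Ilpum control and lower in NIL GRH than in Ilpum GRH. With 1 library per condition the difference between the 2 contrasts was not tested. The log2 differences with GRH were -6.25 for Os11g0384789 (hydrolase-like), -5.17 for Os01g0885300, -5.12 for Os05g0190300 (acid phosphatase), -4.61 for Os05g0196200, -3.86 for Os04g0233400, -3.07 for Os09g0450300 (a MAP65 microtubule protein), -2.64 for Os01g0660200 (the class III chitinase OsChib3a), -2.38 for Os07g0573400, -2.33 for Os07g0173400, -2.23 for Os11g0641200 and -2.06 for Os02g0584700 (a heavy metal transport domain). Without GRH they ran from 2.07 to 6.2. Os11g0384789 had 0 reads in Ilpum control, 412 in NIL control, 85 in Ilpum GRH and 0 in NIL GRH, so each line was read in a single condition. The chitinase gene Os01g0660200 had 6, 121, 124 and 24 reads in the same order. Os01g0885300, Os05g0190300 and Os05g0196200 were also listed at 0 in both Ilpum control and NIL GRH, with 54, 20 and 23 reads in NIL control.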

How the results depend on the processing

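The counts depended on the read minimum and the fold. With at least 10 reads in one infested library, 1618 genes were higher in NIL GRH, 1425 in Ilpum GRH and 238 the same way in both conditions, with a median of -0.02 over all genes. With at least 100 reads these were 171, 86, 26 and 0.17, and with at least 30 reads in both libraries 79, 56, 7 and -0.06. At 2-fold they were 1559, 1493 and 677, and at 8-fold 228, 185 and 31. Quantile normalization moved the median to 0.08. Leaving out genes listed at 0, chosen after seeing the data, left 52 genes the same way in both conditions. With a read pair as the unit, also chosen after seeing the data, 279 called genes had an interval wholly past 4-fold in place of 488. The other alternatives (a pseudocount of 0.1 FPKM, TPM, TMM-scaled reads and single-transcript genes) kept each count within 1.5 times. Of 44 list medians 33 kept their sign under every setting, and 11 changed it under a filter; no scaling changed the sign of a list median or of any of the 122 named genes past 4-fold. Of the 226 named genes, 5 changed sign under a scaling, all with a difference of at most 0.34. No paired analysis was possible because each group holds 1 library. The counts of called genes far from both controls were also given without listed zeros, an alternative chosen after seeing the data.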
